A study of Homo sapiens with 3 samples.

Results

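MEIS1 peaks that lay in introns, outside annotated repeats, and that overlapped no peak of the HOXB13 knockout line numbered 1664, of 5968 peaks called in LV-MEIS1 cells and 8015 peaks in both lists. These regions were chosen by 3 conditions: the deposited annotation of the peak began with an intron, its detailed annotation named no repeat, and its interval shared not 1 bp with any of the 2047 HOXB13ko-LV-MEIS1 peaks. Of 2268 intronic LV-MEIS1 peaks, 504 were in annotated repeats, and of the remaining 1764 peaks 100 overlapped a knockout peak. Over the whole LV-MEIS1 list 5511 of 5968 peaks overlapped none (92.3%), so that a share of 94.3% among intronic non-repeat peaks was near the background, and nothing is read from it because the overlap chose the members.

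CWR22Rv1 is an established human prostate carcinoma cell line, derived from a xenograft that relapsed after castration of its host mice. LV-MEIS1 cells carried a lentiviral MEIS1 vector and kept endogenous HOXB13, whereas HOXB13ko-LV-MEIS1 cells received the same vector after CRISPR knockout of HOXB13, in a pool recombined from several knockout clones. Both lines therefore carried exogenous MEIS1 and were grown with puromycin. Per the study's methods, the knockout cells had already been selected with puromycin for a Cas9 construct. The drug alone could thus not select for the MEIS1 vector in that line. The study does report western blots of exogenous MEIS1 protein in the knockout cells with the vector. It also reports a blot of MEIS1 pulled down from the chromatin of both lines. The input is labelled as CWR-22Rv1 DNA with no treatment. The headers name this same input for both lists, although the study's methods speak of input from each cell line, so fold enrichment in neither list is over an input known to come from that line. The authors pooled 3 immunoprecipitations of LV-MEIS1 cells (202428594 tags) and 2 of HOXB13ko-LV-MEIS1 cells (105763683 tags) before peaks were called against 1 input (39102495 tags). Each line has 1 list with no replicate error, so knockout, Cas9 construct, MEIS1 level, culture, depth and library cannot be told apart. Absence from the knockout list means that no peak passed the caller there, not that there was no signal. All tests took peaks as units and compare the pooled lists only.

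MEIS1 is a TALE homeodomain factor, and it binds DNA through the core word TGACA. TALE factors bind together with HOX proteins, and HOXB13, the posterior HOX factor of the prostate epithelium, prefers words that hold ATAAA, which reads TTTAT on the opposite strand. Introns hold many of the enhancers at which such factors bind, and an intronic enhancer need not act on the gene that surrounds it.

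To show the letters under the strongest of these peaks, 6 summit windows of 101 bases are given in hg38, all from the 10 members with the highest fold enrichment. TGACA is in capitals, and windows with the word are written so that the occurrence nearest to the summit reads TGACA, while the last pair of windows held none and is written on the plus strand.
SLCO2A1, chr3:133986316-133986416, plus strand: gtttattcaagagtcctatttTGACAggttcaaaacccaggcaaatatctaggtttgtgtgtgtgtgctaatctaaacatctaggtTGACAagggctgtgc
PACSIN2, chr22:42955377-42955477, minus strand: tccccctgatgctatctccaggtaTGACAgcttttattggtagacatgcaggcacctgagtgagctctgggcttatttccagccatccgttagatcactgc
IQGAP2, chr5:76412666-76412766, plus strand: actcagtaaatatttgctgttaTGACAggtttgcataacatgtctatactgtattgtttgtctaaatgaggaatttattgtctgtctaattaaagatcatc
RNF144A, chr2:7031832-7031932, minus strand: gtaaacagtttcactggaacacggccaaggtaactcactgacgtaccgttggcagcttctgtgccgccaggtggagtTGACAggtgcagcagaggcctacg
LINC02147, chr5:117881060-117881160, plus strand: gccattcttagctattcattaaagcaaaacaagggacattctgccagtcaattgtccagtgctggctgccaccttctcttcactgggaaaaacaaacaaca
RYR1, chr19:38544093-38544193, plus strand: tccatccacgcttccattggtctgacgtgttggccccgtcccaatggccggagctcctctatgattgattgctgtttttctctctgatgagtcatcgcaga
The windows with the word have it at different distances from the summit, and SLCO2A1 has it on either side of the summit.

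The member with the highest fold enrichment lay in intron 1 of 29 of PTK2B, a non-receptor tyrosine kinase gene, at 16.4 times the local background with a scaled pileup of 62.8. Peaks of like strength lay in intron 1 of SLCO2A1, a prostaglandin transporter gene (14.8), and in the noncoding gene LINC02147 (14.05). A peak in intron 86 of 104 of RYR1, the calcium release channel of skeletal muscle, reached 14.01. SUCLG2, a subunit gene of succinyl-CoA ligase, held the next at 13.9 in its intron 5, and PACSIN2, which encodes a membrane-bending protein, held one at 13.8 only 4454 bp from the start site. IQGAP2 (13.7), a scaffold protein gene, RNF144A (13.6), a ubiquitin ligase, and RIT2 (13.4), a RAS-like GTPase, were also among the 10 highest, of which 9 are described here. The RYR1 and RNF144A peaks were annotated to the noncoding genes LOC105372397 and LOC101929452. RIT2 and LINC02147 were far from their start sites, at 350223 bp and 150749 bp.

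Across all members the fold enrichment ranged from 2.76 to 16.4 with a median of 6.16 (quartiles 5.21 and 7.69), and the median width was 277 bp. Intergenic non-repeat LV-MEIS1-only peaks, 1447 in number, had nearly the same values, with a median fold enrichment of 6.24 and a width of 287 bp. The 100 intronic non-repeat peaks shared with the knockout were higher, at a median of 10.8 (quartiles 7.89 and 13.4) and a width of 406 bp. The 93 intronic non-repeat peaks found only in the knockout list had a median of 5.38 against the local background of their own list. The LV-MEIS1 peaks used here are numbered from 1 to 5968 with no number missing. The study's text states more LV-MEIS1 peaks than that, so knockout-only means no overlap with the list used here, and every comparison with this class rests on it. These levels are given without a test because the call of a peak and its overlap depend on its strength.

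**Figure D1:**
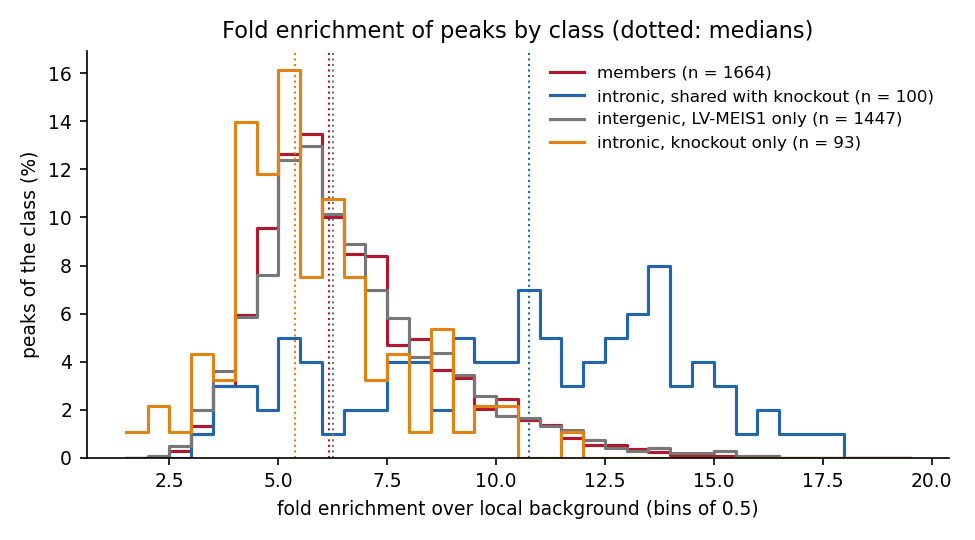
Share of peaks (%, y axis) in bins of 0.5 of fold enrichment over local background (x axis) for the 1664 members and 3 comparison classes, with dotted lines at the medians. Members and intergenic peaks follow nearly the same curve with medians of 6.16 and 6.24, and the shared intronic peaks extend to the right with a median of 10.8.

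At the edge of the overlap condition, the member nearest to a knockout peak lay in LINC00869, with 62 bp between the intervals and a fold enrichment of 6.05. The next were in SPOP, an adaptor gene of a ubiquitin ligase, at 465 bp (8.09), in HMGN3-AS1 at 523 bp (5.86), in C2CD5 at 597 bp (11.2) and in FAM234B at 634 bp (5.38). Just outside the condition, a peak in PPFIA3 overlapped a knockout peak by 8 bp (5.31), and peaks in ADCY1, SHF, NDUFA4L2 and BCL2 overlapped by 144, 155, 166 and 181 bp. Few members were near this edge: 8 lay within 1 kb of a knockout peak and 45 (2.70%) within 10 kb, and the median gap was 519 kb.

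TGACA was present within 50 bp of the summit in 942 of 1664 members (56.6%, 95% Wilson interval 54.2% to 59.0%). Windows of the same length centred 500 bp to either side held it in 19.4%. Against the flank before the summit 766 members had the word only at the summit and 134 only in the flank, and against the flank after it the counts were 757 and 149 (larger p of both exact binomial tests 1.24e-98, two-sided). The occurrences gathered at the summit itself. In the central 10 bp there were 18.7 per 100 members, whereas the median bin beyond 200 bp held 2.28.

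The share in members was close to that in other LV-MEIS1 peaks, and small differences depended on the window. It was 55.0% in the shared intronic peaks, a difference of 1.61 percentage points (95% Newcombe interval -8.08 to 11.6, adjusted exact p = 0.756, Fisher's exact test over 3 comparisons). In the intergenic LV-MEIS1-only peaks it was 58.7%, so members were lower by 2.06 points (interval -5.53 to 1.42, adjusted exact p = 0.389). With windows of 100 bp to either side the difference from the intergenic peaks was -3.53 points and passed (adjusted exact p = 0.047, range over alternatives 0.047 to 0.461), and with 25 bp the difference from the shared peaks turned to -1.95 points (adjusted exact p = 0.754). All 5968 LV-MEIS1 peaks together had 56.1%. The knockout-only intronic peaks differed: 9 of 93 (9.68%) held the word at the summit, 46.9 points below the members (interval of the difference 38.9 to 52.0, adjusted exact p = 6.66e-20), and their flanks held it in 15.1%. Their windows were also richer in G and C, with a median of 65.3% against 38.6% in members, and the part of base composition in this difference was not tested. All 2047 HOXB13ko-LV-MEIS1 peaks together held TGACA at 16.8% of summits and 14.4% of flanks. A low share was therefore not particular to the knockout-only intronic peaks.

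**Figure D2:**
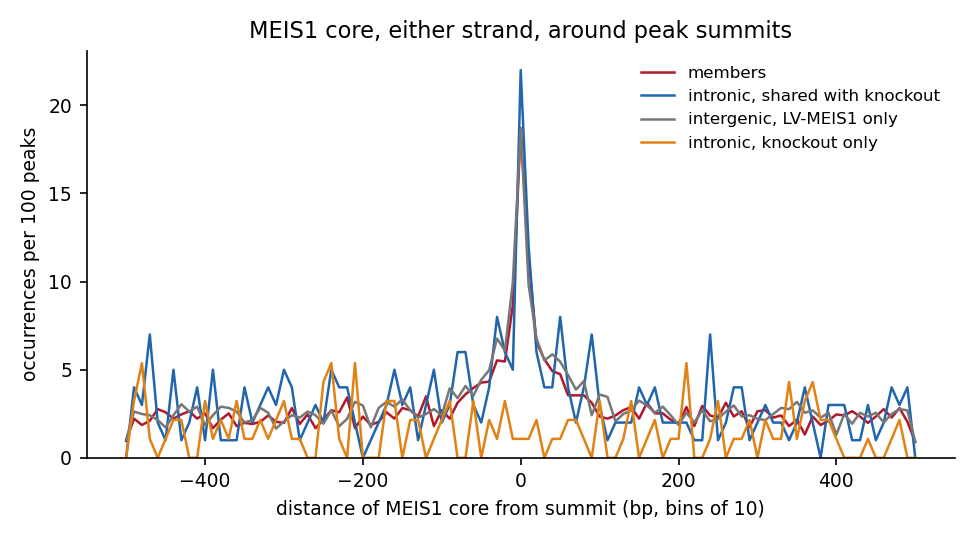
Occurrences of the MEIS1 core on either strand per 100 peaks (y axis) by distance from the summit (x axis, bins of 10 bp) in members and 3 comparison classes. The members reach 18.7 in the central bin and the intergenic peaks 18.7, while the knockout-only intronic peaks show no rise, at 1.08.

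Members with TGACA were modestly stronger than those without it. Their median fold enrichment was 6.33 (n = 942, quartiles 5.31 and 7.84) against 5.95 (n = 722, quartiles 5.07 and 7.42), a difference of 0.39 (adjusted p = 0.0015, permutation test with 100000 resamples, over 3 words). With members cut into 5 equal groups by fold enrichment, the share with the word was 49.8% in the lowest group (interval 44.5% to 55.2%) and 61.4% in the highest (56.1% to 66.5%). A single occurrence was found in 696 members, 2 in 207 and 3 or more in 39, with medians of 6.21, 6.65 and 6.70.

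The letters next to the core differed between summits and flanks as well. Among 72 combinations of position and base, from 6 bases before the core to 12 after it, 9 (12.5%) passed an adjusted p of 0.05 in Fisher's exact tests of 1237 summit occurrences against 725 flank occurrences. All 9 lay at the base directly before the core or at the 3 bases after it. G directly followed the core in 41.5% of summit occurrences and 30.1% of flank occurrences (adjusted exact p = 3.38e-05), and G was again more frequent at the next base (28.5% against 18.9%, adjusted exact p = 4.88e-05). T was more frequent at the third base after the core (38.3% against 29.1%, adjusted exact p = 0.00053). Before the core, C was more frequent (30.4% against 21.9%, adjusted exact p = 0.00061) and A less so (23.3% against 33.2%, adjusted exact p = 4.88e-05).

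Words of factors active in prostate or at enhancers were searched in the same way, on both strands. The words were chosen with earlier results of these data known, so the number that passed is a description only. Of the 16, 11 (68.8%) were more frequent at the summits of members than in their flanks at an adjusted p below 0.05 over the 16 exact binomial tests. TGACTCA and TGAGTCA are reverse complements and count the same AP-1 sites, TGACAG contains TGACA, and TGATTTAT contains the complement of ATAAA. The PBX and posterior HOX composite word TGATTTAT had the highest ratio of summits to flanks, at 9.74% of summits and 0.811% of flanks (adjusted exact p = 4.48e-31). The paper's introduction, citing earlier work, states that HOXB13 and its near paralogs favour MEIS1 as partner and exclude PBX proteins. A match to this word therefore does not tell which HOX factor was bound. TGACAG, the core with its frequent next base, was at 27.7% and 6.37% (adjusted exact p = 5.26e-56), and TTTACGA, a posterior HOX word with C, at 1.38% and 0.300% (adjusted exact p = 0.0015). ATAAA alone was common everywhere, at 54.5% of summits and 37.8% of flanks (adjusted exact p = 5.64e-22).

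Forkhead words, which FOXA1 and related pioneer factors bind, were also frequent at the summits. TGTTTAC was at 11.6% of summits and 2.07% of flanks (adjusted exact p = 7.67e-28), and TATTTAC at 10.8% and 2.31% (adjusted exact p = 2.27e-22). TGGCA, the short word of NFI factors, was at 35.8% and 20.8% (adjusted exact p = 2.23e-19). Smaller differences were found for CAGCTG, the E-box (6.37% and 3.34%, adjusted exact p = 0.00015), AGATAA of GATA factors (11.7% and 8.14%, adjusted exact p = 0.0015) and AGAACA of the androgen and glucocorticoid receptors (11.1% and 7.81%, adjusted exact p = 0.0036). The AP-1 word was at 2.46% and 1.62% (adjusted exact p = 0.18), the CCAAT box at 15.7% and 13.7% (adjusted exact p = 0.65) and the ETS word CCGGAAG at 0.601% and 0.331% (adjusted exact p = 0.87). In the knockout-only intronic peaks TGATTTAT was at 0 of 93 summits, which allows a share of up to 3.23%, and TGTTTAC at 1.08%, in windows with a median GC content of 65.3%, whose part was not tested. These words were not tested between classes, and other LV-MEIS1 peaks held them too. TGATTTAT was at 9.61% of intergenic LV-MEIS1-only summits, at 13.0% of shared intronic summits and at 7.77% of all LV-MEIS1 summits. For TGTTTAC the shares were 10.85%, 8% and 8.71%. Other words differed more: TGACAG was at 28.7%, 39% and 30.4% of these summits against 27.7% in members. ATAAA was at 56.3%, 44% and 45.8% against 54.5% in members.

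**Figure D3:**
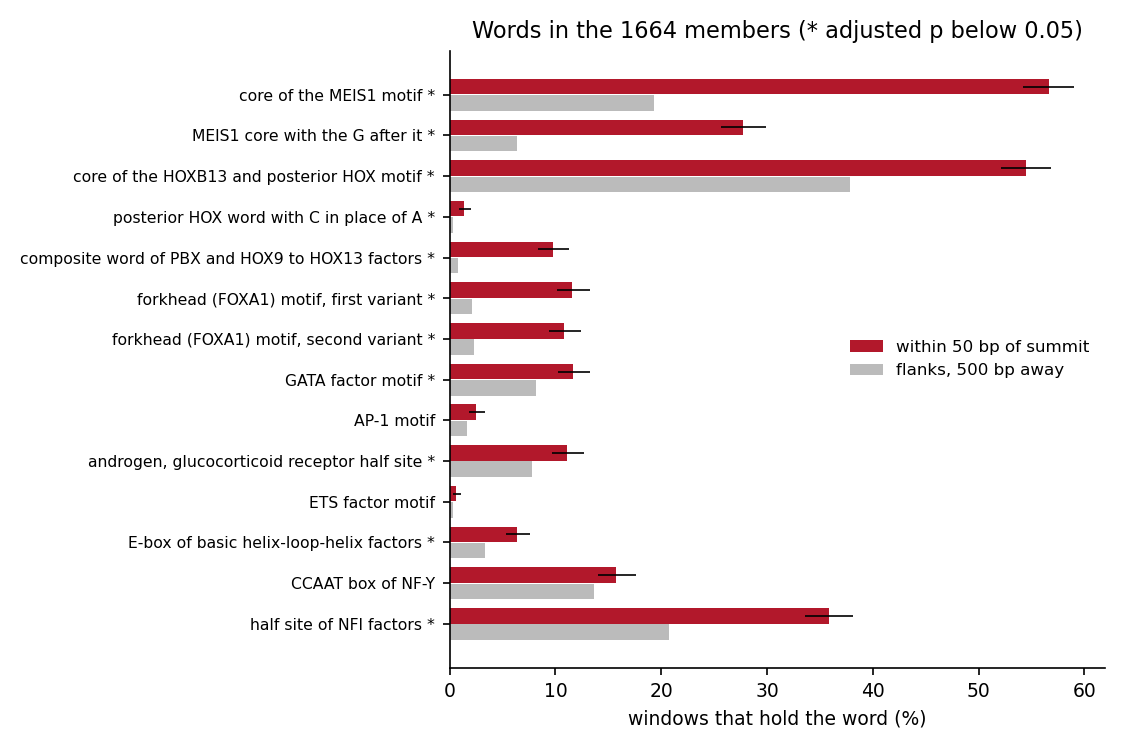
Share of windows (%, x axis) that hold each of 14 words within 50 bp of the summit (red, with 95% Wilson intervals) and in flanking windows 500 bp away (grey) for the 1664 members. The MEIS1 core stands at 56.6% against 19.4%, and the PBX and posterior HOX composite word at 9.74% against 0.811%.

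The members without TGACA were not devoid of related words. TGATTTAT was in 97 of these 722 (13.4%, interval 11.1% to 16.1%) and in 65 of the 942 with TGACA (6.90%, interval 5.45% to 8.70%). TGTTTAC was in 14.4% (interval 12.03% to 17.15%) and 9.45% (7.74% to 11.5%), whereas CAGCTG was the rarer one without the core, at 3.32% (2.244% to 4.898%) against 8.70% (7.07% to 10.7%). A further 157 members had neither TGACA nor TGATTTAT and held a forkhead word. TGACA, TGATTTAT and the forkhead words were all absent from 468 (28.1%), with a median fold enrichment of 5.95. The HOX core ATAAA was not part of this count. It was in 428 of the 722 without TGACA (59.3%, interval 55.7% to 62.8%) and in 479 of the 942 with it (50.8%, 47.7% to 54.0%). Neither TGACA nor ATAAA was in 294 members (17.7%). The 4 members with the highest fold enrichment that had the composite word and no TGACA are shown with TGATTTAT in capitals and 14 bases to either side.
SUCLG2, chr3:67518332-67518367, minus strand: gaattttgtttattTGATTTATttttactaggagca
AFF3, chr2:99999182-99999217, plus strand: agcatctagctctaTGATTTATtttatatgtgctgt
FBLN1, chr22:45534936-45534971, plus strand: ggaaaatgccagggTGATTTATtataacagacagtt
EYS, chr6:64432012-64432047, plus strand: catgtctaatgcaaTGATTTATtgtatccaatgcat
Their fold enrichments were 13.9 in SUCLG2, 11.7 in AFF3, a gene of a transcription elongation factor family, 11.2 in FBLN1, the gene of the matrix protein fibulin 1, and 10.8 in EYS. These 4 were chosen after the word counts were seen.

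Around the nearest TGACA within 100 bp of the summit, ATAAA was counted at every gap from 0 to 150 bp, on either side and strand. Of the bins formed in this way 3 (0.497%) passed, among 2484 matches at 1166 members (one-sided exact binomial tests, adjusted over all bins). The highest had 21 matches where 4.11 would fall in each bin on average: ATAAA on the opposite strand, beginning 2 bp after the core, which reads TGACANNTTTAT (adjusted exact p = 1.77e-06). The other bins, with 14 matches each, had ATAAA on the same strand as the core, ending 7 bp and 10 bp before it (adjusted exact p = 0.020 for both). In intergenic LV-MEIS1-only peaks the first of these spacings had 16 of 2319 matches (adjusted exact p = 0.0017), a share of 0.690% against 0.845% of matches in members, and the difference did not pass (p = 0.62, Fisher's exact test). The shared intronic peaks had 1 of 117. These spacing tests assume an even spread over all gaps, although ATAAA was more frequent near summits than in flanks. Short gaps can therefore pass more easily, most of all the bins with 14 matches, and no test against the local level was run.

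The spaced pair was found in 21 members, 1.26% of all, in 21 different host genes. The 5 with the highest fold enrichment are shown from 10 bases before the core to 20 after it, with the core and the spaced TTTAT in capitals.
TRIO, chr5:14272458-14272492, plus strand: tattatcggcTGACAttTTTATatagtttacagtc
CHRM3, chr1:239879483-239879517, minus strand: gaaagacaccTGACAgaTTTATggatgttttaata
ASCC1, chr10:72098969-72099003, plus strand: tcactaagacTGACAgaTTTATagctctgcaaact
EEF2K, chr16:22212181-22212215, plus strand: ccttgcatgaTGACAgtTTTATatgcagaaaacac
GPM6A, chr4:175714693-175714727, plus strand: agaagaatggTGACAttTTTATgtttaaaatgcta
TRIO, a guanine nucleotide exchange factor gene, held the strongest, at a fold enrichment of 10.8 in intron 2 of 56. CHRM3, a muscarinic receptor gene, followed at 10.8, then ASCC1 at 10.1, EEF2K, the kinase of elongation factor 2, at 10.0 and GPM6A at 9.92. The bases between the words were not the same in all 5. The median fold enrichment of the 21 was 6.91 against 6.16 in the other 1643 members, which did not pass (adjusted p = 0.13, permutation test with 100000 resamples).

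**Figure D4:**
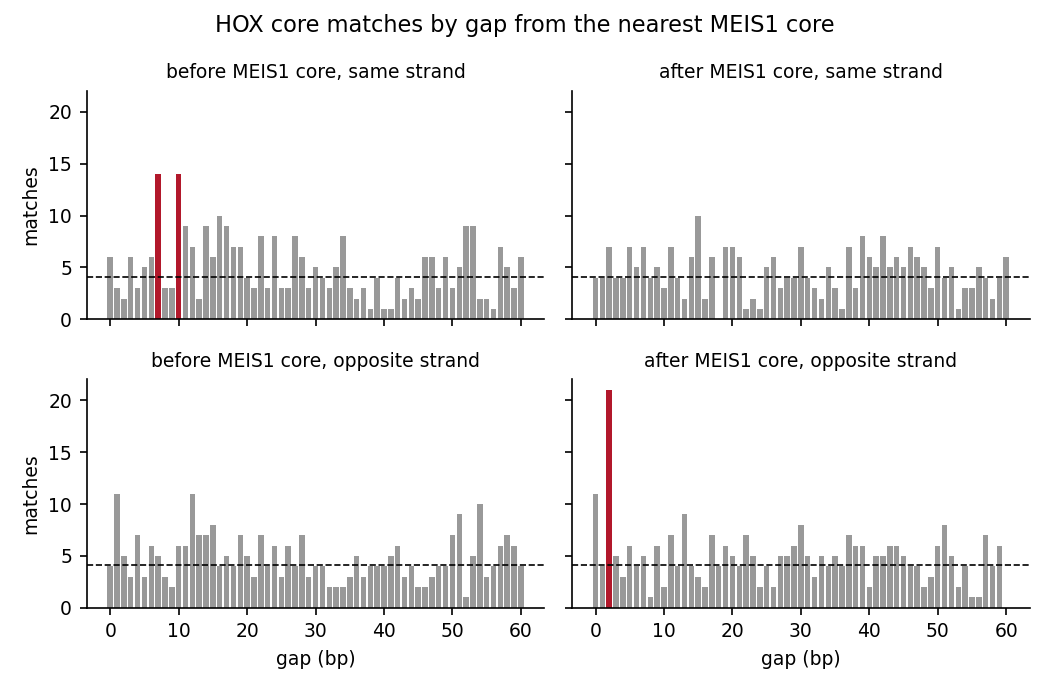
Number of matches (y axis) of the HOX core at each gap from 0 to 60 bp (x axis) before or after the nearest MEIS1 core, on the same or the opposite strand, in members. Red bars passed an adjusted p of 0.05, the dashed line is the mean of 4.11 matches over all bins, and the highest bar has 21 matches at 2 bp.

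By position in the gene, 553 members (33.2%, interval 31.0% to 35.5%) lay in intron 1, 284 (17.1%) in intron 2 and 251 (15.1%) in intron 10 or later, and the median transcript had 11 introns. In canonical protein-coding transcripts of GENCODE, intron 1 holds 24.6% of intronic bases and intron 2 holds 15.2%, which is a description only because the authors' annotation used other transcripts. The shared intronic peaks had 37.0% in intron 1 (interval 28.2% to 46.8%, adjusted exact p = 0.446 against members, Fisher's exact test over 3 comparisons). Of the knockout-only intronic peaks 60.2% were there (interval 50.1% to 69.6%, adjusted exact p = 8.1e-07), and of the intronic LV-MEIS1-only peaks in repeats 28.2% (adjusted exact p = 0.053). The knockout-only peaks also lay nearer to annotated start sites, at a median of 7673 bp against 33463 bp in members. Their summit windows were richer in G and C (median 65.3% against 38.6%). The part of either in the intron 1 share was not tested.

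The median distance from a member to the start site of its annotated gene was 33463 bp, with 82 members under 1 kb, 342 from 1 to 10 kb, 932 from 10 to 100 kb and 308 beyond. TGACA was at 69.5% of summits under 1 kb (interval 58.9% to 78.4%), at 54.6% from 10 to 100 kb (51.4% to 57.8%) and at 59.1% beyond 100 kb (53.5% to 64.4%). The windows under 1 kb had a median GC content of 57.9%, and 28 of the 82 were annotated to a CpG island. In all, 74 members lay in CpG islands, and TGACA was at 52.7% of their summits (interval 41.5% to 63.7%) against 56.8% elsewhere (p = 0.55, Fisher's exact test). Median GC content of the summit window was 38.6% in members and in intergenic LV-MEIS1-only peaks alike. With equal medians the outcome of the permutation test is fixed in advance, so nothing is read from it. With windows of 100 bp to either side members were higher by 0.498 percentage points (p = 0.69, permutation test of 100000 resamples). The farthest members lay 803152 bp from the start of CCSER1, 796762 bp from LOC441155 in an intron of EYS and 791110 bp from CPS1-IT1 in an intron of ERBB4.

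The gene around a member was often not the gene it was annotated to. Host transcripts could be matched to a RefSeq gene for 1648 members, in 1197 genes. Of 1643 members with both names, 518 (31.5%, interval 29.3% to 33.8%) were annotated to the start site of another gene, against 37.4% of shared intronic peaks (interval 28.5% to 47.2%, p = 0.224, Fisher's exact test). The other gene was protein-coding for 226 of the 518 and noncoding for 268. The share went up with distance, from 1.22% under 1 kb to 45.8% beyond 100 kb.

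Most host genes held a single member (935), 262 held 2 or more and 25 held 5 or more. Host genes were long, with a median of 130.4 kb for the 1035 protein-coding ones against 27.5 kb for all protein-coding genes, and the 25 with 5 or more members had a median of 784 kb. Long genes hold more intron, so intronic regions of any kind fall in them more often. No intronic background was set beside these lengths. A knockout peak lay elsewhere in 129 of the 1197 host genes (10.8%). Of the members, 263 (15.8%) had another within 10 kb, and the median distance to the nearest other member was 223 kb. Whether members lay closer together than an even spread was not tested.

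GPC6, which encodes the heparan sulfate proteoglycan glypican 6, held the most members, 10 in 1181 kb (0.847 per 100 kb) on chromosome 13 from 93226807 to 94408020. Their fold enrichments ran from 3.48 to 13.0 with a median of 6.48, 7 of the 10 had TGACA, and no knockout peak lay in the gene. None of the 10 was annotated to GPC6 itself: the names given were GPC6-AS1, GPC6-AS2 and, for the strongest one in intron 6, DCT. All 10 LV-MEIS1 peaks in the gene were members. The strongest window held no TGACA, and the second and the third are shown for their core, in capitals, with TTTAT or TTTAC directly after it.
GPC6, intron 3, chr13:93948698-93948798, minus strand: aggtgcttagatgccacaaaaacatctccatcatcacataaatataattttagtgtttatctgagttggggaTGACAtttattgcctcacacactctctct
GPC6, intron 4, chr13:94122379-94122479, plus strand: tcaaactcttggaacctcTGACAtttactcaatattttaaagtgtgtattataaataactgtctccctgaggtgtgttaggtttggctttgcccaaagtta
The first of these had a fold enrichment of 9.81 and the other 8.65. Over all members TTTAT directly after the core had 11 matches and did not pass (adjusted exact p = 0.35, one-sided exact binomial test). TTTAC at that place was not counted.

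DLEU1, a long noncoding RNA gene, held 9 members on the same chromosome, with a maximum of 13.3, and 6 had TGACA. PDE4D, a cAMP phosphodiesterase gene, also held 9, spread over 1260 kb. Its strongest member (11.2) lay in intron 1 and was annotated to PART1, a prostate androgen-regulated transcript, and 1 knockout peak lay in the gene. SDK1, a cell adhesion gene, held 7, of which 4 were in intron 1 and 6 had TGACA, up to 11.1. DIAPH2, a formin gene on chromosome X, held 7 of which only 2 had TGACA, up to 10.6, and LRMDA and NAALADL2 held 7 each, up to 10.1 and 9.31. LOC643339 held 7 as well. MLLT3, the gene of a transcription elongation factor subunit, had 6 in 281 kb, or 2.14 per 100 kb. Among the 25 genes with 5 or more, those with a position in GENCODE had from 0.243 per 100 kb in MACROD2 to 4.67 in ANKRD30A.

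**Figure D5:**
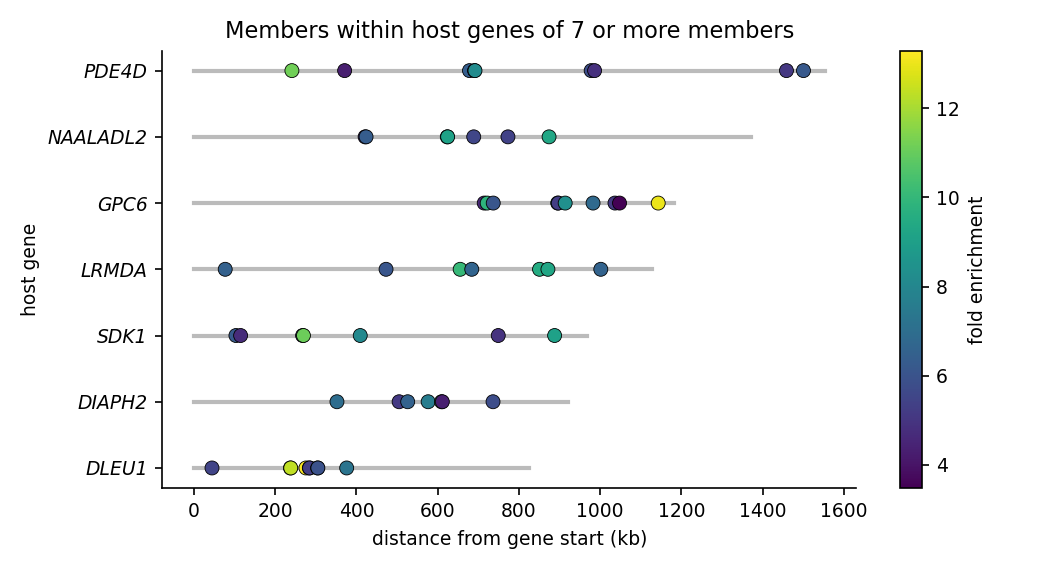
Position of members along the host genes with 7 or more members and a GENCODE position (x axis, kb from the gene start, grey lines for the length of the gene), coloured by fold enrichment. Members of GPC6 lie in the distal part of the gene with the strongest, at 13.0, near its end, and those of PDE4D are spread over its length.

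Gene lists give the same regions by function, counted by host or annotated gene and beside the share of all 5968 LV-MEIS1 peaks. Only intronic peaks have a host gene here, so peaks elsewhere in the whole list could match by annotated gene alone. The shares are therefore not on equal terms, the count favours members, and no share of intronic peaks alone is given. Proteoglycan genes held 19 members (1.14%, against 0.503% of all LV-MEIS1 peaks), in 5 of 36 genes: GPC6, GPC5, SPOCK1, SPOCK2 and CD44. GPC6 gave 10 of them. SPOCK1, a testican gene, had its strongest at 11.4 in intron 2, and a peak of 10.1 annotated to SPOCK2 lay 9947 bp from its start site in an intron of ASCC1. GPC5, the neighbour of GPC6, had its strongest at 7.44. The CD44 member was weak, at 4.72 in an intron of SLC1A2. Of the 19, 13 had TGACA.

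The FOX, SOX, GATA, TBX and TALE genes held 22 (1.32%, against 0.855%) in 12 of 36 genes, led by FOXP1 at 11.1, and 8 of the 22 had TGACA. FOXA1, the forkhead factor that opens chromatin for the androgen receptor, was the annotated gene of a peak of 10.9 that lay 67612 bp away in intron 14 of MIPOL1. Androgen-responsive and prostate lineage genes held 13 (0.781%, against 0.737%) in 8 of 32 genes, which includes that peak and one of 10.1 in intron 2 of FOLH1, the gene of prostate-specific membrane antigen.

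Integrin and focal adhesion genes held 15 members (0.901%, against 0.402%), with the strongest at 8.88 in intron 1 of ACTN4, an alpha-actinin gene. Growth factor receptor and RAS genes held 14 (0.841%, against 0.788%), and ERBB4, a receptor tyrosine kinase, led them with 11.7 in intron 2. Cadherin and protocadherin genes held 13 (0.781%, against 0.570%), with PCDH9 highest at 9.13. TGF-beta and BMP genes held 10 (0.601%, against 0.235%), where BMPR1B, a BMP receptor, reached 12.9 in intron 1. Wnt and Hedgehog genes held 6 (0.361%, against 0.251%), and GLI3, a transcription factor of Hedgehog signalling, was highest at 9.52. Long genes hold more intron, so these shares are counts of peaks and not rates for the genes, and gene length was not adjusted for.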

How the data were processed

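MEIS1 ChIP-seq of LV-MEIS1 and HOXB13ko-LV-MEIS1 cells was analysed from 1 peak list and 1 annotation per line. Per the submitters' processing notes, the authors used CASAVA 1.8, Trimmomatic 0.38, Picard 2.18.10, Bowtie2 and HOMER 4.9.1 with hg38, and the file headers give MACS2 2.1.2 with reads extended to 200 bp, a q-value limit of 0.01 and pools scaled to the input by 0.193 and 0.370.

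The deposited signal is the scaled pileup at the summit, and the deposited fold enrichment is its ratio to local background. The authors' p-value and q-value are −log10 values. Other deposited values are base pairs to the nearest start site. Scaled values were not compared between lists by a test.

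Peaks were joined to annotations by peak number. Members, words and gene lists were chosen with earlier results of these data known. Words were searched on both strands of hg38 within 50 bp of summits and in windows 500 bp away. Exact binomial tests, Fisher's exact tests and permutation tests of medians (100000 resamples) took peaks as units, with Benjamini-Hochberg adjustment. Host transcripts were named from RefSeq (GRCh38.p14 table, names only), and gene positions came from GENCODE 44. Named members were the 10 of highest fold enrichment, host genes with 5 or more members, the strongest per gene list, all proteoglycan members (in ranges), the 5 strongest with the spaced pair, those at the edge of the overlap condition and the 3 farthest from start sites. Some items covered by these rules are not reported here. Intervals of 95% cover counting error only. Scripts were tested on simulated sequences. Alternatives were other windows, stricter peaks, other definitions of overlap and chromosomes 1 to 22, X and Y only. Versions were 3.11.15 for Python, 1.17.1 for scipy, 0.24.0 for pysam and 0.14.6 for statsmodels, with arrays handled in numpy 2.4.6, tables in pandas 2.3.3 and plots in matplotlib 3.10.9.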

Additional observations from a re-analysis of the deposited data

Results flagged for a closer look

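The share of peaks with TGACA at the summit minus the share in flanks was 37.3 percentage points in the members and -5.38 points in the 93 knockout-only intronic non-repeat peaks, a difference of 42.6 points (p = 8.77e-06, larger of both Fisher's exact tests on peaks with the word at the summit only or the flank only). The median GC content of the summit windows was 38.6% and 65.3%, and its part in the difference was not tested. In all 2047 HOXB13ko-LV-MEIS1 peaks the summit share exceeded the flank share by only 2.39 points.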

How the results depend on the processing

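Of 45 recomputed values 43 kept their direction and their side of the threshold, or for counts stayed within 1.5 times. The exceptions concern TGACA shares: with windows of 25 bp the difference from the shared intronic peaks turned to -1.95 points (adjusted exact p = 0.754, range over alternatives 0.432 to 0.915), and with windows of 100 bp the difference from the intergenic peaks was -3.53 points (adjusted exact p = 0.047, range 0.047 to 0.461). The cause was not tested. The number of members went from 1329 with a fold enrichment of at least 5 to 2147 with repeats kept. Alternatives for the word panel and the letters around the core were added after the data were seen, with 10 and 13 words and 8 letters called. No paired analysis was possible because each line has 1 pooled list, and no replicate could be left out. Without replicate lists, variation between cultures was not measured and the 2 pools differ in depth, so the number of peaks that could be called differs between the lists.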
